A study of Mus musculus with 25 samples.

Results

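The 30 genes described here encode the enzymes of cholesterol synthesis, the main enzymes of fatty acid synthesis and desaturation, and the proteins that regulate both. They were chosen by symbol, as a list of pathway members, from a table of 47575 genes, with earlier results of these data known. All 30 were measured well enough to be tested. The list holds 5 regulators, 7 enzymes of the mevalonate pathway up to farnesyl diphosphate, 11 enzymes from squalene to cholesterol, 1 sterol transfer protein, and 6 enzymes of fatty acid synthesis. Srebf1 and Srebf2 encode the SREBP transcription factors, which are held in the endoplasmic reticulum by SCAP and the INSIG proteins while sterols are plentiful. When sterols run low, SCAP carries SREBP to the Golgi apparatus, where its active part is cut free, enters the nucleus and raises the transcription of the pathway's enzymes. In the liver, cholesterol in the diet lowers this programme, and sperm lose cholesterol from their membranes when they capacitate.

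RNA was sequenced from sperm of 25 male C57BL/6J mice, 5 on each of 5 diets, fed from 8 weeks of age for at least 8 weeks. The control diet (CD) held 18% casein and 21% sugar, and the low protein diet (LPD) 9% casein and 24% sugar. The Western diet (WD) held 19% casein, 34% sugar, 20% milk fat and 0.15% cholesterol, and it was the base of the methyl donor-supplemented Western diet (MD-WD). The methyl donor-supplemented low protein diet (MD-LPD) and the MD-WD were enriched per kg with 5 g of choline chloride, 15 g of betaine, 7.5 g of methionine, 15 mg of folic acid and 1.5 mg of vitamin B12. All males were of 1 inbred strain with no genetic change, and the CD, LPD and MD-LPD held no added cholesterol. The WD and MD-WD therefore differ from the other diets in milk fat and sugar as well as in cholesterol. By the composition the paper gives, they also held less corn oil and starch, more mineral and vitamin mix, and more energy per gram. The WD held no added methionine, unlike the CD and LPD. The parts of these differences cannot be told apart. Sperm were collected by swim-up from sliced cauda epididymides, and each library comes from 1 male.

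Values are normalised counts, reads per gene divided by a size factor of the library, and totals per library ranged from 32455480 to 54108158 reads. Within a diet, values are given in the order of the numbers that the labels give the males, which are 10, 11, 12, 14 and 15 for CD, 10, 11, 12, 13 and 15 for LPD, 9, 10, 11, 14 and 15 for MD-LPD, 10, 11, 12, 13 and 14 for WD, and 9, 10, 12, 14 and 16 for MD-WD. Transcripts of sperm were present in every library, with none of 12 markers at 0, but their summed level ranged from 102565 in LPD male 12 to 1657214 normalised counts in MD-WD male 12. Markers of the epididymal epithelium, the cells that line the duct in which sperm mature, summed to between 98921 in MD-WD male 16 and 535574 in LPD male 13, with Crisp1 (mean 234419.8) the highest of 10 and Lcn5, Lcn8, Lcn9 or Cst11 at 0 in some libraries (1 to 4 of the 10 in each). Macrophage markers summed to 11401 to 68973 and fibroblast and smooth muscle markers to 20552 to 222864, while adipocyte markers stayed between 327 and 3561, hepatocyte markers between 16.1 and 6498 and Leydig cell markers between 258 and 556. The libraries thus hold RNA of sperm and of other cells of the tract, and in such bulk samples fewer cells of a type and less RNA per cell cannot be told apart. For 3 libraries, CD male 15, LPD male 15 and MD-LPD male 15, title and treatment field name different diets, and the diet in the title was taken.

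All members were detected in all 25 libraries. Per length, as the mean normalised count per kb of exon, the desaturases led with 2384 for Scd2 and 2107 for Scd1, which put the first double bond into stearate and palmitate. Acly, which makes cytosolic acetyl-CoA from citrate, followed at 837 and Fasn, the fatty acid synthase, at 787. The highest level per kb among the regulators was that of Srebf1 (611), and among the enzymes of cholesterol synthesis that of Nsdhl (556), a sterol dehydrogenase, and Fdps (538), farnesyl diphosphate synthase. The members lowest per kb were Mvk at 26.9 and Pmvk at 33.8, the kinases that phosphorylate mevalonate in succession, Insig2 at 51.3 and Ebp, the sterol isomerase, at 61.7. Enzymes of the same route thus differed widely in level per kb, and Mvk and Pmvk lay below the other 5 mevalonate enzymes in every diet. Lengths are of all annotated exons together, which can overstate the transcript in use. Other genes' spans overlap 19 of the 30 members in the annotation, protein-coding ones in 12 (Acat2 with Tcp1 on the opposite strand, for example), and how reads there were assigned is not given in the sources used here. The same holds for reads that Scd1 and Scd2 could share.

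**Figure D1:**
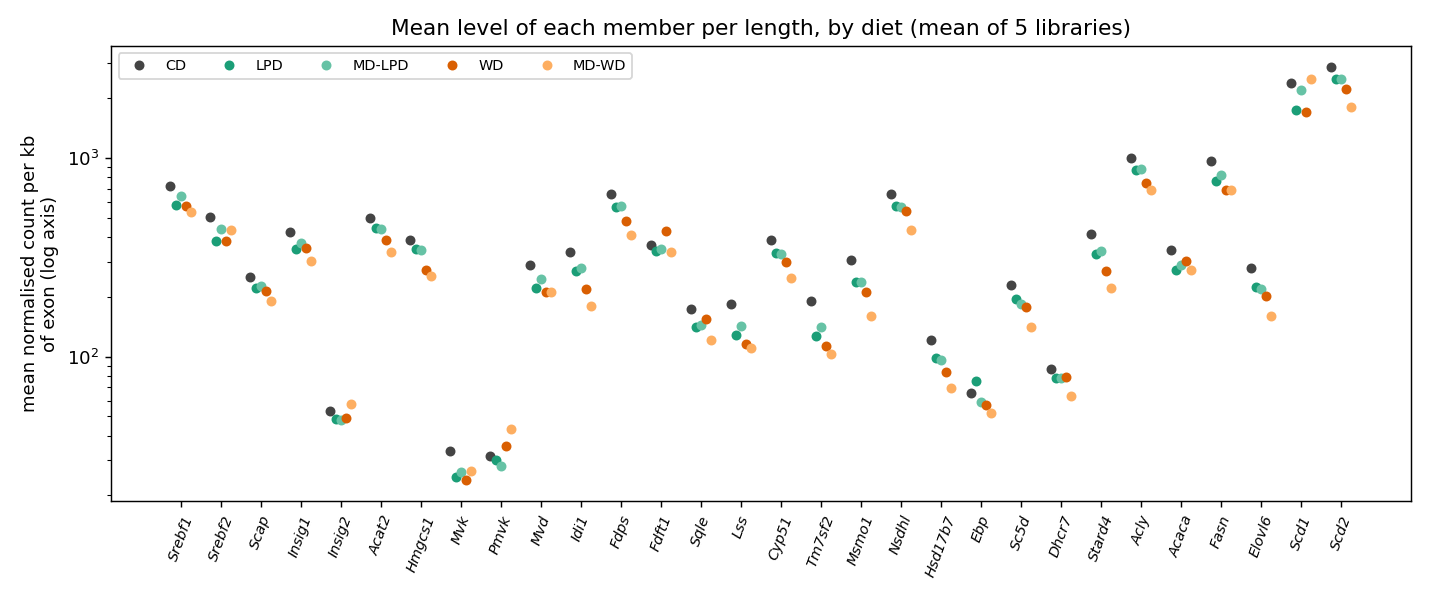
Mean normalised count per kb of exon (log axis) of each of the 30 members, ordered by role, with 1 point per diet (mean of 5 libraries). Scd2 and Scd1 average 2384 and 2107 over all libraries, and Mvk and Pmvk 26.9 and 33.8.

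The promoters of the members were searched for the letters known from sterol-regulated genes, since the pathway is controlled there. RefSeq promoters (250 bases before to 50 after the start, build GRCm38.p6) matched 24 of 30 members, with 32 promoters among them, and none of the table's entries matched Fdps, Fdft1, Sqle, Stard4, Scd1 or Scd2. The sterol response element of the LDL receptor type, TCACNCCAC, was found on either strand in 1.24% of all 32851 promoters and among the members in that of Hmgcs1 only. CCAAT, the letters bound by NF-Y, which acts beside SREBP, stood in 21 of 32 member promoters (65.6%) against 37.4% of all. GGGCGG, the letters bound by Sp1, stood in 24 of 32 (75%) against 35.7%. These matches are descriptions of the letters, not of sites in use. Below is the promoter of Hmgcs1, the only one of the 32 searched with an exact match to TCACNCCAC. Those of Sc5d and Msmo1 follow, the enzymes with the lowest p between diets with and without cholesterol. The last is 1 of the 2 promoters of Pmvk, which went the other way. All 4 were chosen after values were seen. Capitals mark every match to the 3 motifs, read on either strand, so that a match on the other strand shows the complementary letters in reverse, and the sterol element of Hmgcs1 stands at bases 114 to 122.
Hmgcs1 (chr13:119690101-119690400, plus strand): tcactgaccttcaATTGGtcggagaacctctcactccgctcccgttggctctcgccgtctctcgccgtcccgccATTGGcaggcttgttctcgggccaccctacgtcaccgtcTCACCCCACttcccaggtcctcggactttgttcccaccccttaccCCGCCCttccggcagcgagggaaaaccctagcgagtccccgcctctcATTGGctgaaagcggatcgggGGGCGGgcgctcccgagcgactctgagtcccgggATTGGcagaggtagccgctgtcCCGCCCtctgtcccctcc
Sc5d (chr9:42264251-42264550, minus strand): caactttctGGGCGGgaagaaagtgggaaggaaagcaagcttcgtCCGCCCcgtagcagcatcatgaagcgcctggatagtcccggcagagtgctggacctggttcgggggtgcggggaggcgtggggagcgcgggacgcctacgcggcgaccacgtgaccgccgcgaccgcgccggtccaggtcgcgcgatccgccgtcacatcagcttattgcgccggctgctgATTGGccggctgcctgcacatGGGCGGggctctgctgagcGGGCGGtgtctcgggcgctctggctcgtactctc
Msmo1 (chr8:64733529-64733828, minus strand): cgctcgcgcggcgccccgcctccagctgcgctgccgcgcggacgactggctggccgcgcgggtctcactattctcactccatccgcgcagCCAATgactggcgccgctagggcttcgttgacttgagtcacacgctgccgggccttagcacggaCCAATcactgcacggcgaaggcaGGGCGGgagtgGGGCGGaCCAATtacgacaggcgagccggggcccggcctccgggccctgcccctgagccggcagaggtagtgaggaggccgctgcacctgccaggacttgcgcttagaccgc
Pmvk (chr3:89454291-89454590, plus strand): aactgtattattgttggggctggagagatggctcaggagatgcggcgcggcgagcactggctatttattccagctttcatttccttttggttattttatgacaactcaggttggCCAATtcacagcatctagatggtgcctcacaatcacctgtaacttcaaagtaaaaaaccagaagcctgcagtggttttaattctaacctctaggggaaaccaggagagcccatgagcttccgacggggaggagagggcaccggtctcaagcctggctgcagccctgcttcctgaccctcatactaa
Hmgcs1 held 4 CCAAT and 3 GGGCGG, Sc5d 1 and 4, and Msmo1 3 and 2. The promoter of Pmvk shown held 1 CCAAT and 0 GGGCGG, and its second promoter held neither.

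Among the regulators, Srebf2, which encodes the SREBP that mainly drives cholesterol synthesis (ENSMUSG00000022463, chr15:82031382-82093201, plus strand of GRCm39), was highest on average in CD, at 4273, 4148, 4858, 5511 and 4757 normalised counts. The LPD libraries held 2984, 4177, 4486, 2280.3 and 3913 and the MD-LPD libraries 2890.2, 3531, 4516, 4712 and 4777. The WD libraries held 3213, 2515, 4092, 3514 and 4599 and the MD-WD libraries 3838, 4163, 3310.5, 4384 and 4526. The CD values lay in a narrow band at the top, and each other diet held at least 1 library inside it. On the scale of log2(normalised count + 1), which is used for every difference below, Srebf2 differed from CD by -0.44 ± 0.19 (SE, limma, adjusted p = 0.561) on LPD and by -0.42 ± 0.19 (SE, limma, adjusted p = 0.297) on WD. With methyl donors the differences from CD were -0.22 ± 0.19 on MD-LPD and -0.22 ± 0.19 on MD-WD (adjusted p = 0.999 and 0.593).

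Srebf1, whose SREBP-1c product mainly drives fatty acid synthesis (ENSMUSG00000020538, chr11:60089913-60113407, minus strand), spanned 2421, 4039, 4371, 5792 and 4700.4 normalised counts in CD. It held 2660.4, 4379, 5049, 2058 and 2940.1 in LPD, 2130.3, 2986, 4803, 4853 and 4214 in MD-LPD, 2194, 2045, 4267, 2877 and 5413 in WD and 3788, 3805, 2536, 3161 and 2510 in MD-WD. The libraries of each diet differed among themselves by more than the means of any pair of diets, and all diets overlapped. The differences from CD ran from -0.40 on MD-WD to -0.18 on MD-LPD, none past the threshold (limma, lowest adjusted p = 0.475). Scap, the escort of SREBP (ENSMUSG00000032485, chr9:110158229-110214024, plus strand), held 1891, 2957, 3525, 4249.8 and 3439 in CD, 2144, 3272, 3253, 2757 and 2696 in LPD and 2233, 2525, 3038, 3328 and 3320.2 in MD-LPD. In WD it held 2295, 1682, 3295, 2898 and 3549.8 and in MD-WD 2841, 2760.0, 2204, 2424 and 1975. CD male 10 was the lowest CD library for both genes and lay just below the lowest MD-WD library for both. Scap differed from CD by -0.36 ± 0.21 (SE, limma, adjusted p = 0.503) on MD-WD.

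The 2 INSIG genes were ordered differently across the libraries. Insig1, itself a target of SREBP and the brake on its transport (ENSMUSG00000045294, chr5:28276315-28283668, plus strand), held 1337, 1903, 2209.9, 2686 and 2202 normalised counts in CD, 1203, 2060.1, 2533, 1161 and 1548 in LPD and 995, 1444, 2575, 2164 and 1979 in MD-LPD. The WD libraries held 1274, 1298, 1511, 1545 and 2977 and the MD-WD libraries 1768, 1916, 1149, 1454 and 1100. WD male 14 was the highest of all 25 libraries while the other 4 WD libraries held at most 1545, and no MD-WD library exceeded 1916. Insig1 differed from CD by -0.48 ± 0.28 (SE, limma, adjusted p = 0.5) on MD-WD. Insig2, its paralogue, which holds SCAP back in the same way (ENSMUSG00000003721, chr1:121181760-121260400, minus strand), held 411, 352, 268, 260.0 and 279.6 in CD, 235, 277, 317, 301 and 305 in LPD and 263, 261, 337, 264 and 296 in MD-LPD. It held 247, 303, 297, 302 and 311 in WD and 274, 287, 334, 405 and 415 in MD-WD. Its highest values were in CD male 10 and in MD-WD males 14 and 16, and it differed from CD by 0.13 ± 0.16 (SE, limma, adjusted p = 0.703) on MD-WD. Of the 5 regulators, 4 were lower on the cholesterol diets and 0 passed the threshold in any comparison.

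**Figure D2:**
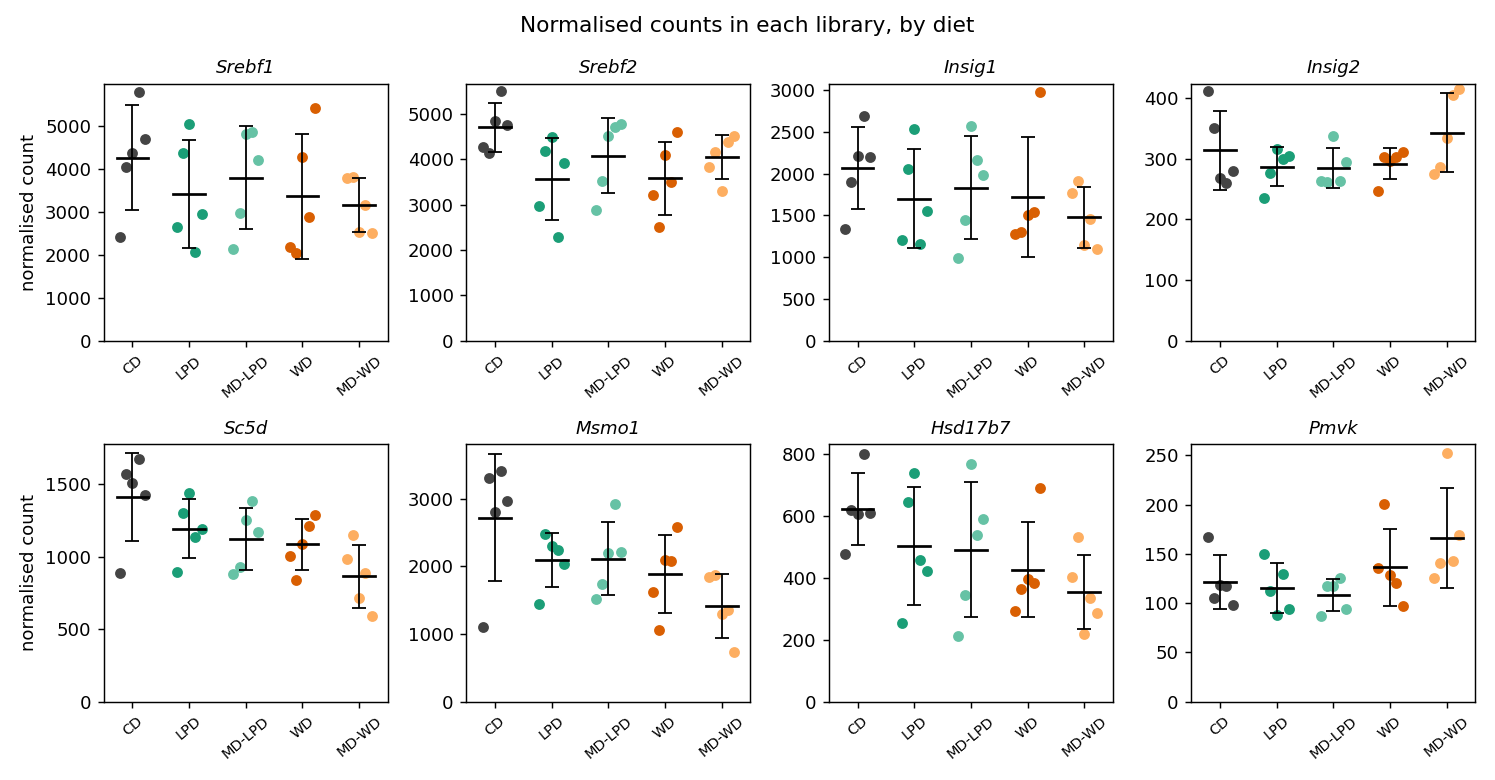
Normalised counts (y axis, from 0) of 8 members in each of 25 libraries, by diet (x axis), with the mean (bar) and SD (whiskers) of 5 libraries per diet. Sc5d averages 1413 in CD and 865 in MD-WD, Pmvk 121 and 166, and the diets overlap for each of the 8 genes.

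In the mevalonate pathway, Hmgcs1, which condenses acetoacetyl-CoA into HMG-CoA (ENSMUSG00000093930, chr13:120151915-120170470, plus strand), was described in every library because its promoter is printed above. It held 974, 1785, 2028, 2898 and 2465 normalised counts in CD, 1193, 2307, 2793, 1261 and 1613 in LPD and 800.4, 1190.3, 3011, 2106 and 1983 in MD-LPD, and 878, 1036, 1189, 1251 and 2842 in WD and 1345, 2131, 996, 1287 and 913 in MD-WD. On the WD, 4 libraries lay between 878 and 1251 and male 14 far above them. It differed by -0.44 ± 0.24 (SE, limma, adjusted p = 0.294) between the diets with and without cholesterol. Mvk, mevalonate kinase (ENSMUSG00000041939, chr5:114582267-114601803, plus strand), held 295, 269, 403, 514 and 383 in CD, 164, 340.5, 381, 201 and 284 in LPD, 145, 209.7, 376, 381 and 348 in MD-LPD, 240.0, 199, 282, 189 and 417 in WD and 272, 352, 181, 311 and 355 in MD-WD. Its lowest CD library, at 269, was exceeded by 3 libraries on LPD, 3 on MD-LPD, 2 on WD and 4 on MD-WD, and its difference from CD was -0.47 ± 0.30 (SE, limma, adjusted p = 0.699) on LPD and -0.51 ± 0.30 (SE, limma, adjusted p = 0.369) on WD.

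Pmvk, phosphomevalonate kinase (ENSMUSG00000027952, chr3:89361758-89376323, plus strand), was higher where most members were lower. It held 167, 105, 118, 118 and 98.5 normalised counts in CD, 149.9, 113, 88.3, 129 and 94.3 in LPD and 87.2, 117, 117, 125 and 94.0 in MD-LPD. The WD libraries held 135, 200.3, 128, 120.2 and 96.6 and the MD-WD libraries 126, 140.4, 253, 143 and 169. Every MD-WD library held 126 or more, as did 1 of 5 in CD, and the single highest value was MD-WD male 12. Pmvk was higher on the cholesterol diets by 0.37 ± 0.15 (SE, limma, adjusted p = 0.257) and on MD-WD against CD by 0.43 ± 0.23 (adjusted p = 0.491). The other mevalonate enzymes were lower on average on MD-WD than on CD. Idi1, the isopentenyl diphosphate isomerase, averaged 1198 ± 437 (SD, n = 5) on CD and 638 ± 279 on MD-WD, a difference of -0.89 ± 0.40 (SE, limma, adjusted p = 0.481). Fdps averaged 3226 ± 1259 and 2004 ± 892, Acat2, which makes acetoacetyl-CoA, 2914 ± 1018 and 1975 ± 823, and Mvd, mevalonate diphosphate decarboxylase, 789 ± 214 and 578 ± 231. For Idi1, Fdps, Acat2 and Mvd the difference was below the sum of the SDs of the diets.

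On MD-WD against CD the lowest p-values of the list were those of enzymes in the late, sterol part of the route. Sc5d, the sterol C5-desaturase (ENSMUSG00000032018, chr9:42162891-42175605, minus strand), held 889.9, 1567, 1508, 1674 and 1424 normalised counts in CD, 893, 1300.2, 1442, 1133 and 1192 in LPD and 881, 930.2, 1255, 1385 and 1172 in MD-LPD. In WD it held 1007, 837, 1089, 1208 and 1285 and in MD-WD 982, 1149, 717, 886 and 591. All CD libraries except male 10 held 1424 or more, as did 1 of the other 20, LPD male 12. By mean the diets stood in the order of CD first, then LPD, then MD-LPD, then WD and MD-WD last, and the ranges of neighbours in that order overlapped. Sc5d averaged 1413 ± 306 (SD, n = 5) on CD and 865 ± 219 on MD-WD and differed by -0.71 ± 0.20 (SE, limma, adjusted p = 0.481). Between the diets with and without cholesterol it differed by -0.36 ± 0.13 (SE, limma, adjusted p = 0.257), and between MD-WD and WD by -0.35 ± 0.20 (SE, limma, adjusted p = 0.93).

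Msmo1, the methylsterol monooxygenase that removes methyl groups from the sterol ring (ENSMUSG00000031604, chr8:65170603-65186830, minus strand), held 1103, 3302, 2809, 3416 and 2974 normalised counts in CD, 1449, 2483, 2300.0, 2237 and 2031 in LPD and 1512, 1735, 2191, 2924 and 2212 in MD-LPD. The WD libraries held 1621, 1056, 2098, 2085 and 2586 and the MD-WD libraries 1839.8, 1875, 1292, 1356 and 726. In CD, 4 libraries lay above every library of LPD, WD and MD-WD and male 10 among the lowest of all, and the 5 MD-WD libraries held at most 1875. The difference was -0.91 ± 0.30 (SE, limma, adjusted p = 0.481) on MD-WD against CD and -0.50 ± 0.20 (SE, limma, adjusted p = 0.257) on the cholesterol diets. Hsd17b7, which reduces the sterol ketone after Nsdhl (ENSMUSG00000026675, chr1:169777093-169796813, minus strand), held 478, 618, 604, 801 and 609 in CD, 254, 644, 737, 458 and 423 in LPD and 210.2, 343, 769, 538 and 589 in MD-LPD. It held 293, 364, 397, 382 and 691 in WD and 402, 531, 217, 333 and 285 in MD-WD. Only 1 library of WD and 1 of MD-WD lay above the lowest of CD. Its differences from CD were -0.46 ± 0.33 (SE, limma, adjusted p = 0.999) on MD-LPD, -0.59 ± 0.33 (SE, limma, adjusted p = 0.348) on WD and -0.86 ± 0.33 (SE, limma, adjusted p = 0.481) on MD-WD.

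The other sterol enzymes were also lower on MD-WD than on CD in the mean. Cyp51, the lanosterol demethylase, averaged 2287 ± 743 (SD, n = 5) on CD and 1481 ± 410.5 on MD-WD, and Dhcr7, which carries out the last reduction to cholesterol, 709 ± 194 and 519 ± 172. Their differences were -0.59 ± 0.27 (SE, limma, adjusted p = 0.481) and -0.47 ± 0.22 (SE, limma, adjusted p = 0.481). Lss, lanosterol synthase, averaged 2099 ± 1032 and 1254 ± 523, Tm7sf2, a sterol C14-reductase, 942 ± 420.4 and 509 ± 219.7, Nsdhl 2442 ± 989.9 and 1602 ± 777, and Sqle, squalene epoxidase, 1549 ± 467 and 1079.7 ± 297. Fdft1, squalene synthase, was the exception on WD, where it averaged 2048 ± 405 against 1736 ± 440.3 on CD, a difference of 0.26 ± 0.27 (SE, limma, adjusted p = 0.599), and Ebp averaged most on LPD, at 307 ± 99.2. Stard4, which carries cholesterol between membranes, averaged 2536 ± 785 on CD, 1652 ± 949 on WD and 1348 ± 449.5 on MD-WD, with the lowest of all libraries, 539, in MD-LPD male 9. Its differences from CD were -0.71 ± 0.44 (SE, limma, adjusted p = 0.392) on WD and -0.90 ± 0.44 (SE, limma, adjusted p = 0.482) on MD-WD.

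Of the fatty acid enzymes, Acaca, the acetyl-CoA carboxylase that commits carbon to the pathway (ENSMUSG00000020532, chr11:84020476-84292477, plus strand), held 3689.9, 6575, 6626, 8218 and 6691 normalised counts in CD, 5796, 5449, 6552, 3159 and 4117 in LPD, 3527, 5649, 5759.8, 7023 and 4748 in MD-LPD, 4475, 5119, 6196, 5489 and 6500.4 in WD and 6598, 5503, 5533, 4444 and 3039 in MD-WD. The range of the CD libraries covered 17 of the other 20 and the difference was -0.34 ± 0.24 (SE, limma, adjusted p = 0.746) on LPD and -0.16 ± 0.24 (SE, limma, adjusted p = 0.724) on WD. Acly, Fasn, Elovl6, which lengthens palmitate, and Scd2 were lower in the mean of every diet than in CD. On CD and MD-WD, Acly averaged 14644 ± 4683 and 10012 ± 3503, Fasn 11331 ± 3572 and 8105 ± 1469, Elovl6 2369 ± 866 and 1353 ± 426, and Scd2 21724 ± 6680.2 and 13598 ± 3453 (SD, n = 5). Scd2 differed by -0.64 ± 0.30 (SE, limma, adjusted p = 0.481) and Elovl6 by -0.74 ± 0.37 (SE, limma, adjusted p = 0.484).

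Scd1 varied unlike Scd2, its neighbour on chromosome 19. It held 33205, 12807, 12771, 13034 and 13993 normalised counts in CD and 11841, 11262, 7635, 26316 and 33518 in MD-WD, and 20524, 10043, 16873, 10959 and 20676 in MD-LPD. The LPD libraries held 10610.1, 13964, 12639, 15969.7 and 9346 and the WD libraries 13736, 15311, 9376, 10599 and 12513. The 3 highest of all 25 were MD-WD male 16, CD male 10 and MD-WD male 14, which are the 3 libraries with the lowest summed markers of the epididymal epithelium, at 98921, 124142 and 154505. In the same 3 libraries Scd2 held 9069, 10479.5 and 14972, below the mean of all libraries. Across the 25 libraries the slope of Scd1 on that marker sum, with diet in the model, was -0.62 ± 0.22 (SE, limma, adjusted p = 0.0724) and that of Scd2 0.67 ± 0.17 (adjusted p = 0.0156).

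Each diet was then compared with CD across the list. The question was whether under- and overnutrition of the father, with or without methyl donors, went with another level of the programme in his sperm RNA. On LPD 29 of 30 members were lower than on CD against 53.5% of all 28311 genes tested, on MD-LPD 30 against 51.4%, on WD 28 against 48.4%, and on MD-WD 28 against 42.6%. The median log2 difference of the members was -0.28 on LPD, -0.24 on MD-LPD, -0.40 on WD and -0.52 on MD-WD, where the median of all genes tested was -0.04, -0.01, 0.03 and 0.11. The 4 comparisons share the CD libraries, and the members varied together from library to library, so that 30 members of 1 sign are not 30 independent observations. By role, the median on MD-WD was -0.36 for the regulators, -0.55 for the mevalonate enzymes, -0.61 for the sterol enzymes and -0.49 for the fatty acid enzymes.

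No member passed the threshold in any of these comparisons. At an adjusted p under 0.05, limma called 0 of 30 members and 0% of all genes in each of the 4, and edgeR and DESeq2 also called 0 members. At an unadjusted p under 0.05, limma gave 1 lower member on LPD (Srebf2) against 3.76% of all genes, 0 on MD-LPD against 1.43%, 1 on WD (Srebf2) against 8.1%, and 7 on MD-WD (Idi1, Cyp51, Msmo1, Hsd17b7, Sc5d, Dhcr7 and Scd2) against 4.39%, and 0 higher members in all 4. At the same limit edgeR gave 0, 0, 0 and 7 lower members, against 1.98%, 0.763%, 5.21% and 3.49% of all genes. DESeq2 gave 1, 0, 1 and 11 lower members, against 4.69%, 2.04%, 9.67% and 6.19%. Each of the 2 tools also gave 1 higher member, on MD-WD. For 0 members did all 5 libraries of a diet lie below all 5 of CD, against 1.2% of all genes on LPD, 0.6% on MD-LPD, 2.56% on WD and 1.89% on MD-WD. The count on MD-WD included 5 genes (Cyp51, Msmo1, Sc5d, Dhcr7 and Scd2) whose level also followed the markers of epididymal epithelium, which were lowest on MD-WD. Without CD male 10 the medians were -0.51, -0.46, -0.59 and -0.75 and the lower members at an unadjusted p under 0.05 numbered 5, 3, 11 and 18, against 4.19%, 2.19%, 10.1% and 10.1% of all genes in the same fits, still with 0 past the threshold. The counts also moved with other males, and over all fits that left out 1 library the share of all genes that were lower ranged from 1.06% to 5.32% on LPD, 4.75% to 11.4% on WD and 2.13% to 10.1% on MD-WD. On MD-WD the lower members numbered 12 without MD-WD male 10, 4 without MD-WD male 14, and 3 without CD male 11, 12, 14 or 15 or MD-WD male 12 or 16, and on WD they numbered 8 without WD male 14 and 0 without CD male 12, 14 or 15 or WD male 10, 11 or 13. Without CD male 12, 14 or 15 or LPD male 10 or 13 the count on LPD was 0. Without the 3 libraries whose labels conflict the medians were -0.19, -0.25, -0.36 and -0.46.

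**Figure D3:**
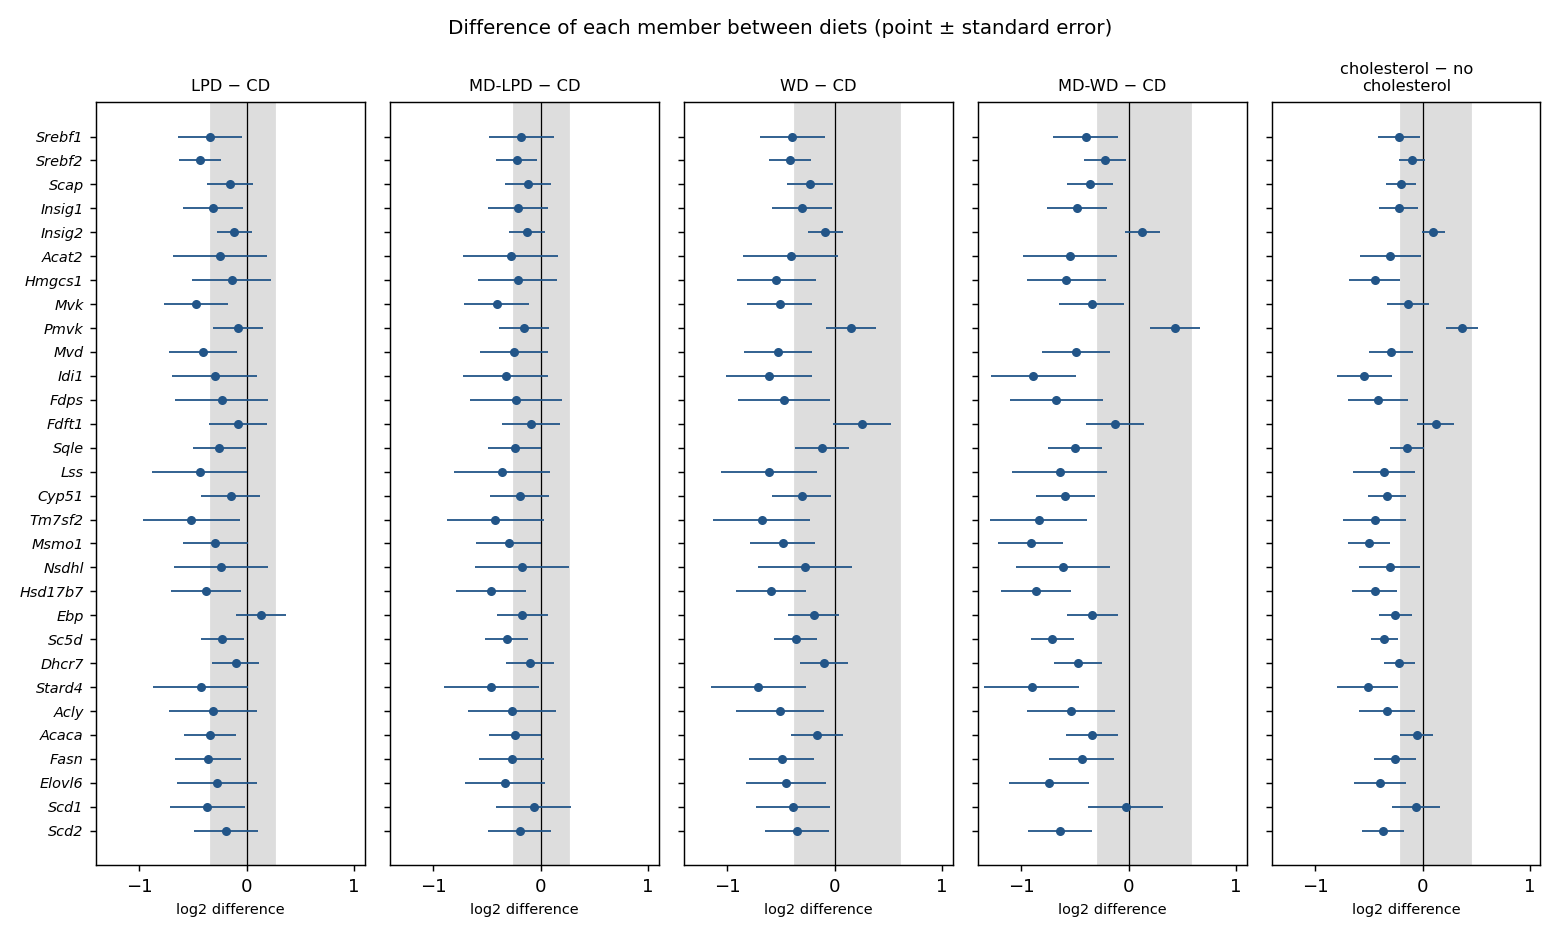
Log2 difference (x axis, scale of log2(normalised count + 1)) of each of the 30 members (rows) from limma, with standard errors, for 4 diets against CD and for the diets with against those without cholesterol. The grey band holds the range from the lower to the upper quartile of all 28311 genes tested; on MD-WD the members have a median of -0.52, with Pmvk at 0.43 furthest to the right.

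The diets with cholesterol, WD and MD-WD, were set against the 3 without it, since the SREBP system senses the sterol content of the endoplasmic reticulum, which cholesterol from the diet can raise in the liver. The median difference of the members was -0.30 against 0.04 for all genes, and 27 of 30 were below 0 against 46.2% of all genes. Insig2, Pmvk and Fdft1 were the 3 above 0. By median, the sperm markers summed to more on the WD, and the epididymal markers to less on the MD-WD, than on the other diets. With the log2 sperm sum as a covariate, chosen after the data were seen, the median was -0.01, and with the epididymal sum -0.05. With both it was 0.15, with 2 of 30 members below 0 against 44.1% of all genes in that fit. At an adjusted p under 0.05 limma called 0 members and 0% of all genes, with edgeR and DESeq2 also at 0 members, and the lowest adjusted p was 0.257, shared by Sc5d, Msmo1 and Pmvk. At an unadjusted p under 0.05 limma gave 4 lower members (Idi1, Msmo1, Hsd17b7 and Sc5d) against 5.07% of all genes and 1 higher (Pmvk) against 13.6%. At that limit edgeR gave 4 lower members against 4.63% of all genes and DESeq2 7 against 6.35%, each with 1 higher. Leaving out 1 library gave 2 to 12 lower members, and 2.85% to 9.45% of all genes. They numbered 12 without CD male 10 (against 8.52% of all genes), 10 without WD male 14, 9 without MD-LPD male 9, and 6 without LPD male 10 or MD-WD male 10, and they numbered 2 without any 1 of CD males 11, 12, 14 and 15, LPD males 11 and 12, MD-LPD males 11, 14 and 15, WD males 10 to 13 and MD-WD males 12, 14 and 16. Without WD male 11 or MD-WD male 12 no member was higher at that limit. The medians without CD male 10 and without MD-WD male 16 were -0.37 and -0.23. With only LPD and MD-LPD as the diets without cholesterol the median was -0.22, and with only CD -0.46.

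The methyl donors were tested on each base diet. Against LPD, MD-LPD had a median member difference of 0.00, with 14 members lower and 16 higher, where 48.1% of all genes were lower. Limma called 0% of all genes and 0 members at an adjusted p under 0.05 and 0 members at an unadjusted p under 0.05, against 1.59% of all genes. Against WD, MD-WD had a median of -0.17, with 23 members lower against 52.8% of all genes, 0 past the threshold (0% of all genes) and 0 at an unadjusted p under 0.05, against 5.55%. The 11 sterol enzymes were all lower on MD-WD than on WD, with a median of -0.34, and the regulators centred on -0.01. The epididymal markers were lowest on MD-WD, and 7 of these 11 enzymes followed their sum (the slopes are given with the marker sums). With that sum as a covariate the median over the 30 members turned to 0.28, with 2 of 30 below 0. In the same fit the median of all genes was 0.03, with 46.5% below 0. The member median was 0.07 with equal totals and 0.06 with the replicate block. Without MD-WD male 16 the median over the 30 members was -0.03, and without WD male 14 it was 0.03. The effect of methyl donors on the WD minus that on the LPD had a median of -0.18 and called 0 members (0% of all genes), and 0 at an unadjusted p under 0.05 against 1.07%. In both methyl donor comparisons and in their difference, edgeR and DESeq2 called 0 members, at an adjusted and at an unadjusted p under 0.05.

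Within a diet, the members varied together from male to male. Taking each library's deviation from its diet mean, 25 of 30 members had a correlation above 0.5 with the median of the other 29 over the 25 libraries, and 21 above 0.8, with Fdps highest at 0.99. Insig2 (-0.16), Pmvk (-0.50) and Scd1 (-0.37) were below 0. These points share the library, its size factor and its cell mixture. The median member deviation was highest in WD male 14 (0.74), where 28 of 30 members lay above the diet mean, and lowest in MD-LPD male 9 (-0.79) and CD male 10 (-0.78), where 28 and 27 lay below it. The spread of the list within 1 diet was thus wider than its difference between any pair of diet medians above.

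The summed sperm markers moved against the members and the summed epididymal markers with them. In WD male 14 the sperm markers summed to 246849 normalised counts, the lowest of that diet, where the other 4 held 616551 to 1554662. Over the 25 deviations the correlation with the member median was -0.67 for the sperm sum and 0.51 for the epididymal sum. The other marker sums were not fitted. Within diets the adipocyte sum was lowest in CD male 10 (499.6), LPD male 13 (366), MD-LPD male 9 (327) and MD-WD male 16 (506). These libraries also had the lowest member median of their diets. On WD that was male 10, but the adipocyte sum was lowest in male 13 (696). The macrophage sum was highest of its diet in CD male 10, MD-LPD male 9 and WD male 10, but not in LPD male 13 or MD-WD male 16. The part of these cells was not tested. In limma, with diet in the model, the slope on the log2 sperm sum was below 0 at an adjusted p under 0.05 for 22 of 30 members against 22.6% of all genes, and above 0 for 1, Pmvk, against 23.8%. The steepest were Stard4 at -0.50 ± 0.10 (SE, adjusted p = 0.000374) and Acat2 at -0.46 ± 0.11 (adjusted p = 0.00148), and Pmvk had 0.19 ± 0.06 (adjusted p = 0.0149). The slope on the log2 epididymal sum was above 0 for 10 members against 5.59% of all genes, and below 0 for 0 against 6.55%. Dhcr7 (0.65 ± 0.09, adjusted p = 0.000262) and Msmo1 (0.89 ± 0.13, adjusted p = 0.000292) had the lowest p there. By role these were 7 of the 11 sterol enzymes, Scap, Elovl6 and Scd2, and 0 of the 7 mevalonate enzymes. Srebf2 had a slope of 0.02 ± 0.14 on the epididymal sum (adjusted p = 0.953) and of -0.22 ± 0.04 on the sperm sum (adjusted p = 5.64e-05). In the epididymal sum, CD male 10 (-1.27) and MD-WD male 16 (-0.81) lay furthest below their diet means. The slopes come from all 25 libraries, with both of these males included. Crisp1, Adam7 and Spink8 (means 234420, 49951 and 13079) made up nearly all of that sum.

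**Figure D4:**
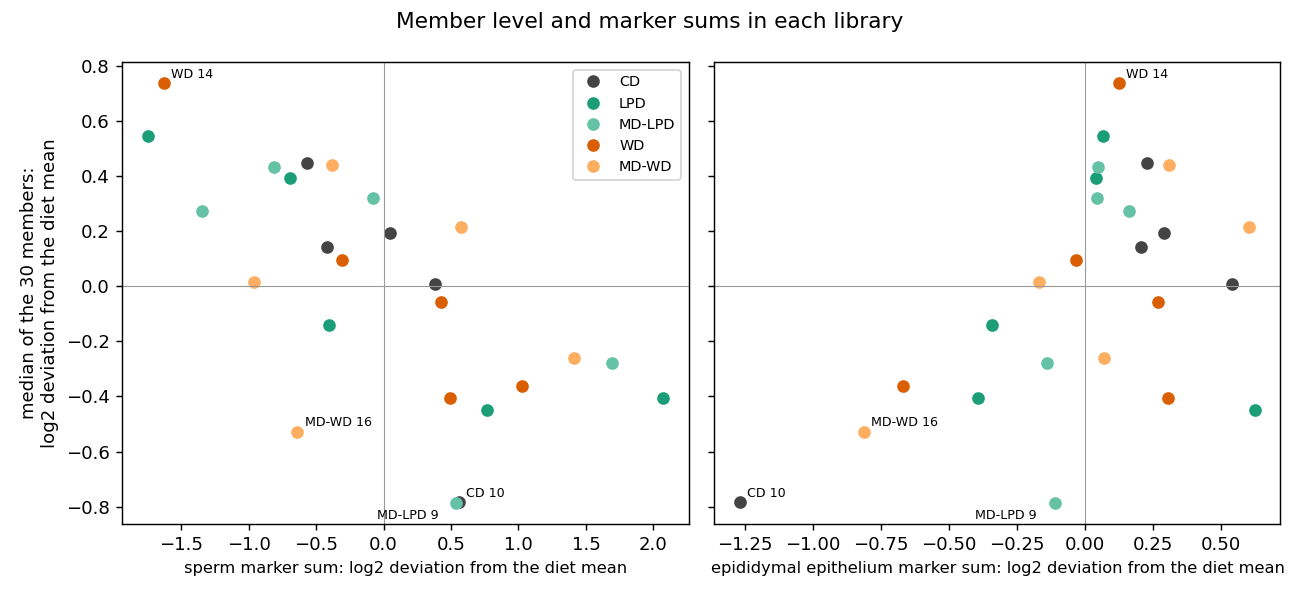
Median log2 deviation of the 30 members from the diet mean (y axis) against the log2 deviation of the summed sperm markers (left) and epididymal epithelium markers (right), 1 point per library, coloured by diet. The points descend in the left panel (r = -0.67, 25 libraries) and rise in the right one (r = 0.51), and CD male 10 and MD-WD male 16 are lowest in epididymal markers.

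Both sums were spread unevenly over the diets. The sperm sum had a median of 405364 normalised counts in CD (range 265023 to 577284), 260089.5 in LPD (102565 to 1444262), 334899 in MD-LPD (139064 to 1141811), 1023037 in WD (246849 to 1554662) and 476357 in MD-WD (319509 to 1657214). The epididymal sum ranged from 124142 to 433869 in CD, 264646 to 535574 in LPD, 275459.7 to 339267 in MD-LPD, 196066 to 385404 in WD and 98921 to 263301 in MD-WD. The sperm sum was thus highest by median on the WD, and the epididymal sum lowest in range on the MD-WD. With the log2 sperm sum as a covariate the median member difference of WD against CD was -0.12, in place of -0.40. With both sums as covariates that of MD-WD against CD was 0.01, in place of -0.52, and 14 of 30 members were below 0, against 45.1% of all genes. The member median on MD-WD was thus near 0 in that fit, where the median of all genes was 0.05 and 20 of 30 members lay below it. For the cholesterol diets the member median was 0.15 in the same fit, against 0.04 for all genes. The WD against CD kept a median of -0.16. In each of these 0 members passed the threshold, and the part of the cell mixture was not tested. LPD and MD-LPD kept medians of -0.45 and -0.27 under both covariates, with 16 and 5 lower members at an unadjusted p under 0.05, against 8.62% and 5.98% of all genes in the same fit, and 0 past the threshold.

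**Figure D5:**
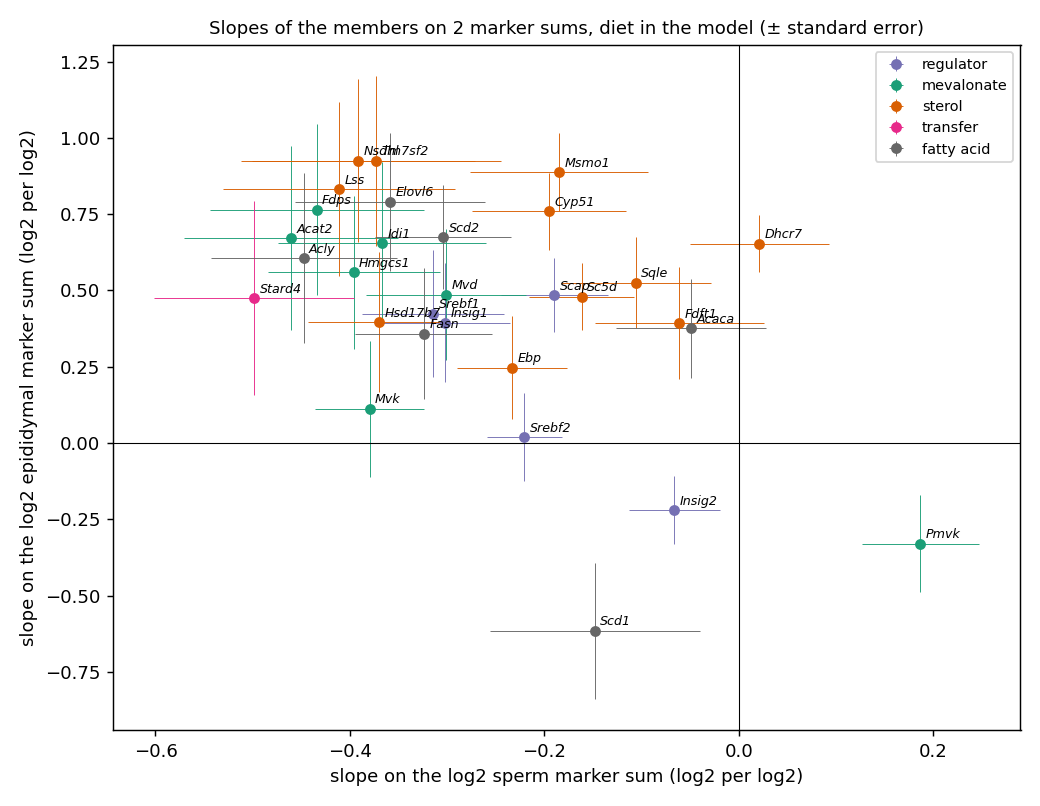
Slope of each of the 30 members on the log2 sum of sperm markers (x axis) and of epididymal epithelium markers (y axis), each from its own limma model with diet, with standard errors and coloured by role. Pmvk (0.19 on the sperm sum) is the only member above 0 at an adjusted p under 0.05 on that axis, and Scd1, Pmvk and Insig2 are the 3 below 0 on the epididymal sum.

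The wider lipid pathways held genes in both directions. Among all genes tested, 46.2% were lower on the cholesterol diets, 5.07% were lower and 13.6% higher at an unadjusted p under 0.05, and the lists are read against these shares. Of 21 other genes of sterol uptake, export and regulation, 14 were lower on the cholesterol diets, with a median of -0.09, 0 past the threshold, and 2 lower and 2 higher at an unadjusted p under 0.05. Those with the lowest p were higher there, Tmem97, a sterol-binding protein of the endoplasmic reticulum, by 0.56 ± 0.23 and Rnf139, an E3 ligase with a sterol-sensing domain, by 0.85 ± 0.36 (limma, adjusted p = 0.257 for both). Of 37 tested other genes of fatty acid synthesis, elongation, desaturation and activation, with their regulators, 9 were lower and 5 higher at that limit, with a median of -0.25; Acsl6, an acyl-CoA synthetase, stood at 1.03 ± 0.35 and Hsd17b12, of very long chain elongation, at -0.45 ± 0.16. Of 20 genes of fatty acid oxidation, 4 were lower and 2 higher, with a median of -0.10, Eci2, an enoyl-CoA isomerase, at -0.34 ± 0.14 and Cpt1b, a carnitine palmitoyltransferase, at 0.96 ± 0.39. Adjusted p was 0.257 for each of these 4 and 0 genes of the 3 lists passed the threshold. The genes that were higher had slopes on the sperm sum of 0.50 (Tmem97), 0.85 (Rnf139), 0.75 (Acsl6) and 0.88 (Cpt1b), and those that were lower -0.21 (Hsd17b12) and -0.22 (Eci2), all at an adjusted p of at most 0.0143 in limma.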

How the data were processed

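Total RNA of swim-up sperm from 25 males was sequenced by the authors from directional, paired-end libraries. Their notes name Trim Galore 0.6.7, HISAT2 2.2.1 with GRCm39, and StringTie 2.2.1 for trimming, alignment and quantification. The deposited signal of each gene and library is its count divided by the DESeq2 size factor of the library. Multiplying by that factor gave whole reads, to within 0.01, for 100% of values, and these counts were used for edgeR and DESeq2. GENCODE vM39 gave names and coordinates to 47034 of 47575 gene identifiers, and 0 columns belonged to no sample. The gene annotation, the strand setting and the treatment of reads with several matches are not given in the sources used here.

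Differences were tested with limma 3.58.1 in R 4.3.3, on log2(normalised count + 1), using a robust empirical Bayes step with a mean-variance trend. The 28311 genes whose mean reached 5 were tested, with all 5 diets in 1 model and the threshold at a Benjamini-Hochberg adjusted p of 0.05 over all genes tested. The log2 scale with a pseudocount understates changes of low genes, and no member is near the minimum. Alternatives were pseudocounts of 0.5 and 10, no filter and a mean of at least 50, TMM and equal totals, edgeR 4.0.16 (quasi-likelihood), DESeq2 1.42.0 (Wald), only the diets compared, a block for the male number, groups by the treatment field, leaving out the 3 libraries in conflict and each library in turn (named by the male's number), empirical Bayes that is not robust, and other sets of control diets. Covariates for the summed sperm and epididymal markers, and leaving out CD male 10 with MD-WD male 16, were chosen after the data were seen. Of these tests, limma and edgeR were first run on simulated counts, for MD-WD against CD and LPD against CD. DESeq2, the slopes and the covariate fits were not.

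The members and all gene lists were chosen with earlier results of these data known. Values in every library are given for the 5 regulators and for the 3 members of lowest p in each comparison with CD and in that of the cholesterol diets; of other lists, the 2 genes of lowest p in the latter are named. Hmgcs1, Scd1 and the promoters of Sc5d, Msmo1 and Pmvk were added after values were seen. The labels call the males separate mice, so p-values measure the spread between males. No 2 libraries among 300 pairs held identical values. Python 3.11.15 was used for summaries and plots.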

Additional observations from a re-analysis of the deposited data

Results flagged for a closer look

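Of 150 sets of 5 libraries (30 members in 5 diets), 10 held a library that stood far from the other 4 by Dixon's ratio, above 0.71. Chance gives about 1 in 20, and the count is near that rate. They fall in 3 libraries, so they are not independent of each other. CD male 10 was low for Cyp51, at 1005 normalised counts, where the other 4 held 2391 to 2921, for Msmo1, at 1103 normalised counts, where the other 4 held 2809 to 3416, and for Elovl6, at 849 normalised counts, where the other 4 held 2558 to 3007. The same male was high for Scd1, at 33205 normalised counts, where the other 4 held 12771 to 13993, and for Pmvk, at 167 normalised counts, where the other 4 held 98.5 to 118. Its epididymal epithelium markers summed to 124142, against 344634 to 433869 in the other CD libraries, and the part of this in the values was not tested.

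WD male 14 was high for Insig1, at 2977 normalised counts, where the other 4 held 1274 to 1545, for Hmgcs1, at 2842 normalised counts, where the other 4 held 878 to 1251, for Nsdhl, at 3877 normalised counts, where the other 4 held 1278 to 1834, and for Hsd17b7, at 691 normalised counts, where the other 4 held 293 to 397. Its sperm marker sum was 246849, the lowest of the WD. WD male 10 was low for Insig2, at 247 normalised counts, where the other 4 held 297 to 311. For 0 members did methyl donors move every library one way on the WD and the other way on the LPD.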

How the results depend on the processing

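The count of members past the adjusted threshold was 0 in all 8 comparisons and under every alternative that was run, those leaving out 1 library included. The median member difference moved from its reported value by less than 0.544, the SD between libraries of one diet, under each alternative, but its sign was not fixed. That SD is of single libraries and is larger than every median of the main fits. A median can thus fall to 0 within it, and the limit does not show that the medians held. Leaving out each library in turn, it ranged from -0.51 to -0.17 on LPD, -0.46 to -0.06 on MD-LPD, -0.59 to -0.29 on WD and -0.75 to -0.40 on MD-WD, all against CD, from -0.39 to -0.23 on the cholesterol diets, from -0.09 to 0.24 for MD-LPD against LPD, from -0.31 to 0.03 for MD-WD against WD, and from -0.40 to 0.02 for the methyl donor effect on WD against that on LPD. Equal totals gave member medians of -0.55, -0.45, -0.94 and -0.81 on LPD, MD-LPD, WD and MD-WD against CD. They moved the median of all genes to -0.28, -0.21, -0.49 and -0.17 in these comparisons, and the median of the members relative to it was -0.26, -0.24, -0.45 and -0.64, with -0.25, -0.22, -0.43 and -0.63 on the deposited scale. For MD-WD against WD the member median turned from -0.17 to 0.07 with equal totals, 0.06 with the replicate block and 0.28 with the epididymal sum as a covariate, the effect of methyl donors on WD against that on LPD turned to 0.01, 0.03 and 0.15, and MD-LPD against LPD took either sign. With the replicate block the medians against CD were -0.17, -0.14, -0.33 and -0.24, and the block changed no call. The numbers of the males are not a shared litter or day in the labels. Deviations of same-numbered males correlated at 0.0348 on average over 33 pairs (-0.42 to 0.57), and 4 of 24 libraries correlated best with one of their own number. Grouping by the treatment field gave medians of -0.14, -0.27, -0.29 and -0.46 against CD. Without CD male 10 and MD-WD male 16 they were -0.51, -0.46, -0.59 and -0.61. The lower members on MD-WD at an unadjusted p under 0.05 numbered 4 with TMM (3.2% of all genes), 2 with equal totals (1.36%), 11 with DESeq2 (6.19%) and 1 with both covariates (6.37%), in place of 7. Among all genes DESeq2 called 42 on LPD, 18 on MD-LPD, 123 on WD and 56 on MD-WD against CD, where limma and edgeR called 0. The lowest recovered count of a member was 56 reads, of Pmvk in MD-LPD male 9, and for members this low counting error is part of the spread between males.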
